A study of Mus musculus with 8 samples.

Results

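The translation initiation and elongation factors are the proteins that start and drive protein synthesis on the ribosome. They were taken here as all probes whose gene symbol begins with Eif or Eef followed by a digit, leaving out the eIF2 kinases of the Eif2ak series, which gave 91 of the 25697 probes of the array, for 54 genes. Gene expression was measured on 1-colour Illumina bead arrays in the tibialis anterior, which lifts the foot, of male C57BL/6 mice aged 8 weeks. The muscles were collected 7 days after they had been transfected with a plasmid for p21 (4 arrays) or with a control plasmid (4 arrays). The labels give neither the promoter of the plasmids, nor the share of fibers they reached, nor the mouse each muscle came from. The p-values therefore measure the spread among these muscles, part of which may be technical. Every value below is a log2 intensity as deposited, given as mean ± SD with n = 4 per group, and every change is p21 minus control ± SE on that scale.

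Initiation begins when eIF2 carries the initiator tRNA to the small ribosomal subunit, together with eIF1, eIF1A, eIF3 and eIF5. eIF4E binds the mRNA cap, eIF4G links it to eIF3, and the helicase eIF4A clears the leader so that the small subunit can scan to the start codon. In elongation eEF1A delivers each aminoacyl-tRNA, eEF1B recharges eEF1A with GTP, and eEF2 moves the ribosome along. Muscle is known for a switch between the eEF1A isoforms, since Eef1a1, the form of embryonic muscle and most other tissues, gives way to Eef1a2 in adult fibers.

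The array showed the muscles and the transfection as labelled. The 7 measured muscle fiber markers had mean log2 levels of 14.61 to 14.65 in control muscles and 14.39 to 14.58 in p21 muscles, and 1 of them, Myh4, fell, a call lost without the intensity trend, control replicate 1, 2 or 3, or p21 replicate 4. Cdkn1a, which encodes p21, rose by 1.43 ± 0.12 in its brightest probe (adjusted p = 0.00042). Macrophage markers stood higher in p21 muscles, with 8 of 13 measured that rose, a mean log2 level of 9.69 to 10.40 in control muscles and of 10.78 to 11.26 in p21 muscles, and 1 of the 13, Itgam, below the array median of 8.39. Markers of immature or denervated muscle stood higher too, with 5 of 6 that rose and mean log2 levels of 9.36 to 9.82 and of 10.97 to 11.39. Of other cell types, 1 of 4 fibroblast markers rose, 1 of 5 endothelial markers fell, and 1 of 3 smooth muscle markers rose while 1 fell. For comparison with all these marker counts, limma called 4.24% of all named genes higher and 4.79% lower by their brightest probes. Among 2 neutrophil, 4 T cell, 1 Schwann cell and 2 adipocyte markers limma called 0, with 1, 2, 1 and 0 at unadjusted p under 0.05. The neutrophil markers had mean log2 levels of 8.52 to 11.43 in control muscles and of 8.55 to 9.27 in p21 muscles. In such bulk samples fewer cells of a type and less RNA per cell cannot be told apart, and the part of these differences in the changes below was not tested.

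The translation factors moved in both directions. Of the 91 probes, 15 passed limma's adjusted p of 0.05 (Benjamini-Hochberg over all probes), or 16.5%, against 8.03% of all probes on the array. Of these, 8 were higher and 7 lower in p21 muscles, against 3.68% and 4.35% of all probes. Among probes brighter than the median probe of the array the shares were 15 of 71 factor probes, or 21.1%, against 15.7%. The genes with a higher probe numbered 6 (Eef1b2, Eif1a, Eif3d, Eif4a1, Eif4a3 and Eif4e2), and those with a lower probe 5 (Eef1a2, Eef2k, Eif2s2, Eif4a2 and Eif4ebp2). With each gene read from its brightest probe, 5 of 54 genes rose and 3 fell, against 4.24% and 4.79% of all named genes. With the replicate number as a block 5 genes fell, since the brightest probe of Eif4a2 and that of Eif1ad then passed (adjusted p = 0.0344 and 0.0496). That block also raised the share of all probes called, from 8.03% to 12.4%. The median change of the 54 genes was 0.00028, against -0.00398 over all named genes. The median absolute change was 0.0939, against 0.0432, which were not compared at like brightness. The 4 p21 values did not overlap the 4 control values in 29 of the 91 factor probes, or 31.9%, against 16.7% of all probes, and all 15 called probes were among them. The share without overlap was not taken among probes brighter than the median probe, where the gap in called shares was narrower.

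**Figure D1:**
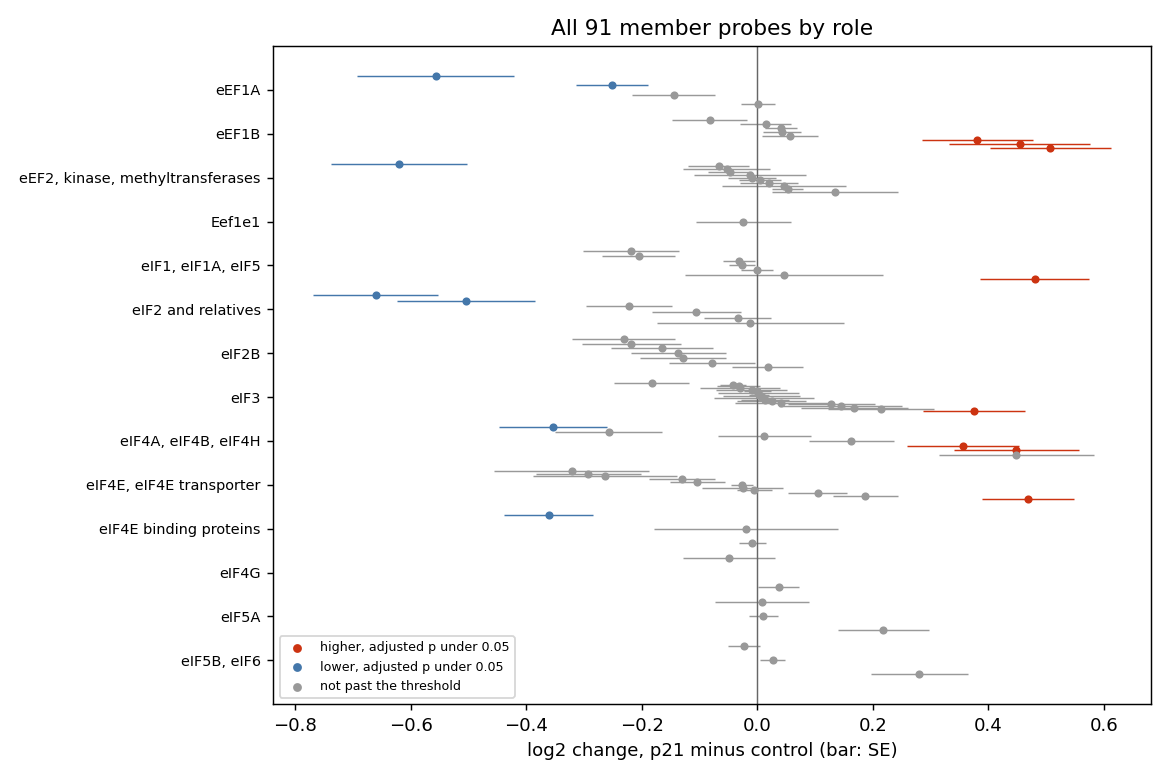
The x axis gives the log2 change of each of the 91 factor probes, p21 minus control, with its SE as a bar, and the y axis groups the probes by role. The changes run from -0.66 (Eif2s2) to 0.51 (Eef1b2), and the grey probes, which are not past the threshold, lie between -0.32 and 0.45.

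These calls depend on single arrays. Without p21 replicate 4 limma called 0 of the 91 probes, with 25 at unadjusted p under 0.05. On the whole array it then called 159 probes, or 0.619%, against 8.03% in the reported fit. Without control replicate 1, 2, 3 and 4 it called 5, 3, 7 and 8 factor probes. The share called of the whole array also fell, to 1.47%, 1.52%, 4.02% and 5.02%. Without p21 replicate 1, 2 and 3 it called 16, 17 and 14 factor probes, beside 8.41%, 7.54% and 7.44% of the whole array. p21 replicate 2 had the most shifted value of the p21 group in 13 of the 15 called probes and the lowest array weight, 0.496. The calls did not rest on it, since all 15 were past the threshold without it. Every factor call below was therefore lost without p21 replicate 4, and losses without other arrays are given gene by gene.

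**Figure D2:**
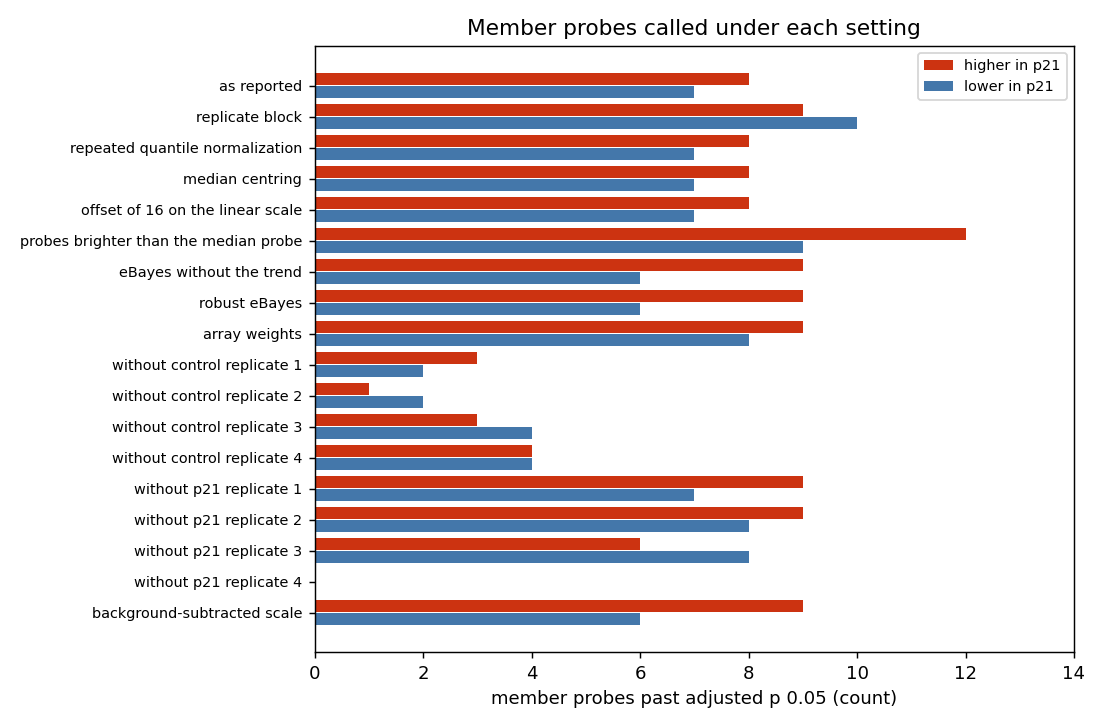
Bars give the number of factor probes past adjusted p 0.05, higher (red) and lower (blue) in p21 muscles, under each setting on the y axis. The reported fit has 8 and 7, and no bar is seen without p21 replicate 4.

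Of the genes of eIF2, the carrier of the initiator tRNA, and of its relatives, the beta subunit gene Eif2s2 fell. Its brightest probe read 11.70, 11.51, 11.56 and 11.49 in control replicates 1 to 4 and 11.03, 10.66, 11.11 and 10.82 in p21 replicates 1 to 4. Every p21 muscle lay under every control muscle, and the lowest value was that of p21 replicate 2. The change was -0.66 ± 0.11, or 1.58-fold lower (adjusted p = 0.0105), the largest fall among the factor probes on the deposited scale, and without p21 replicate 4 the adjusted p was 0.0508. The second Eif2s2 probe fell by 0.50 on the log2 scale (9.98 ± 0.18 to 9.47 ± 0.23, adjusted p = 0.0288), a call also lost without control replicate 1, 2 or 3 (adjusted p = 0.0859, 0.0707 and 0.0624). On a scale from which the floor of the array was subtracted that change was -0.77. The gamma subunit genes on the X and Y chromosomes, Eif2s3x and Eif2s3y, had changes of -0.11 ± 0.08 and -0.01 ± 0.16 (adjusted p = 0.478 and 0.980). The brightest probe of Eif2d, which can also place initiator tRNA on the ribosome, had a change of -0.22 ± 0.08 (adjusted p = 0.0953). Over the 6 probes of this role, which read 4 genes, the changes ran from -0.66 to -0.01. Of these probes 2, both of Eif2s2, passed the test.

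eIF2B, a complex that recharges eIF2 with GTP, had 0 of 7 probes past limma's threshold and 2 at unadjusted p under 0.05. By brightest probe, Eif2b5, for the catalytic subunit, had the smallest p of the 4 genes measured. Its brightest probe read 11.52, 11.38, 11.40 and 11.35 in control muscles and 11.32, 11.14, 11.24 and 11.08 in p21 muscles, a change of -0.22 ± 0.09 (adjusted p = 0.148). The groups lay apart in that probe, but the gap was small. Over the 7 eIF2B probes, which read 4 genes, the change ran from -0.23 (a dimmer Eif2b1 probe, adjusted p = 0.141) to 0.02 (Eif2b2).

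Among the scanning and start codon factors eIF1, eIF1A and eIF5, Eif1a rose. eIF1A binds the small subunit and supports scanning. The Eif1a probe read 9.42, 9.63, 9.68 and 9.57 in control muscles and 9.90, 10.23, 9.91 and 10.17 in p21 muscles. All p21 values lay above all control values, and the change was 0.48 ± 0.09, or 1.40-fold (adjusted p = 0.0173, and 0.0568 and 0.0522 without control replicate 1 and 2). The probe of Eif1ax, its close relative on the X chromosome, lay at the floor of the array, at 8.26 to 8.36. Whether probes read such near-identical relatives or their pseudogenes was not tested. The brightest Eif5 probe, for the factor that triggers GTP hydrolysis by eIF2, had a change of -0.22 ± 0.08 (adjusted p = 0.137). Eif1ad, an eIF1A-like gene, read 9.11 ± 0.06 and 8.90 ± 0.11, with groups apart (adjusted p = 0.0693), while Eif1b overlapped between groups (0.05 ± 0.17).

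eIF3, the largest initiation complex, holds the small subunit and the mRNA together. Of its 12 genes 1 rose, Eif3d, whose product can itself contact the cap of some mRNAs. Eif3d read 11.73, 11.90, 11.83 and 11.86 in control muscles and 12.05, 12.29, 12.14 and 12.34 in p21 muscles. The groups lay apart, with a change of 0.38 ± 0.09, or 1.30-fold (adjusted p = 0.0292). That call was lost without any 1 of the control replicates (adjusted p = 0.0573 to 0.0936) and reached 0.102 without p21 replicate 4. The probes of the other subunits ranged in change from -0.18 ± 0.06 (Eif3e) to 0.21 ± 0.09 (a probe of Eif3l, adjusted p = 0.188). The brightest probes of Eif3f and Eif3i had changes of 0.03 ± 0.06 and -0.01 ± 0.06.

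The 2 closely related helicases eIF4A1 and eIF4A2 moved in opposite directions. Eif4a1 had 2 probes. The dimmer one read 9.95, 9.91, 9.91 and 10.02 in control muscles and 10.13, 10.65, 10.26 and 10.54 in p21 muscles, while the brighter one had means of 12.57 ± 0.13 and 13.02 ± 0.30. The groups lay apart in both Eif4a1 probes, and both had a change of 0.45, with SE 0.11 and 0.13. The dimmer probe passed (adjusted p = 0.0312) and the brighter one was the nearest outside the threshold (adjusted p = 0.0622). With the replicate number as a block both Eif4a1 probes passed (adjusted p = 0.0133 and 0.0122).

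Eif4a2 fell in its dimmer probe, which read 12.80, 12.55, 12.66 and 12.64 in control muscles and 12.45, 12.12, 12.41 and 12.26 in p21 muscles. No p21 value reached a control value there, and the change was -0.35 ± 0.09, or 1.28-fold lower (adjusted p = 0.0412). The brighter Eif4a2 probe had a change of -0.26 ± 0.09 with overlapping groups (adjusted p = 0.117, and 0.0344 with the replicate block). Set against each other within each muscle, the brightest Eif4a1 and Eif4a2 probes differed by -1.54 to -0.95 in control muscles and by -0.86 to -0.04 in p21 muscles, a shift of 0.71 toward Eif4a1. This shows an unequal change of the pair, not their relative amounts, and the pair was picked after its values were seen. The called probes of Eif4a1 and Eif4a2 were lost without any 1 of the control replicates (adjusted p at most 0.0867 and 0.128). With the probes of each gene averaged, Eif4a1 passed (adjusted p = 0.0450) and Eif4a2 did not (-0.31 ± 0.09, adjusted p = 0.0586).

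**Figure D3:**
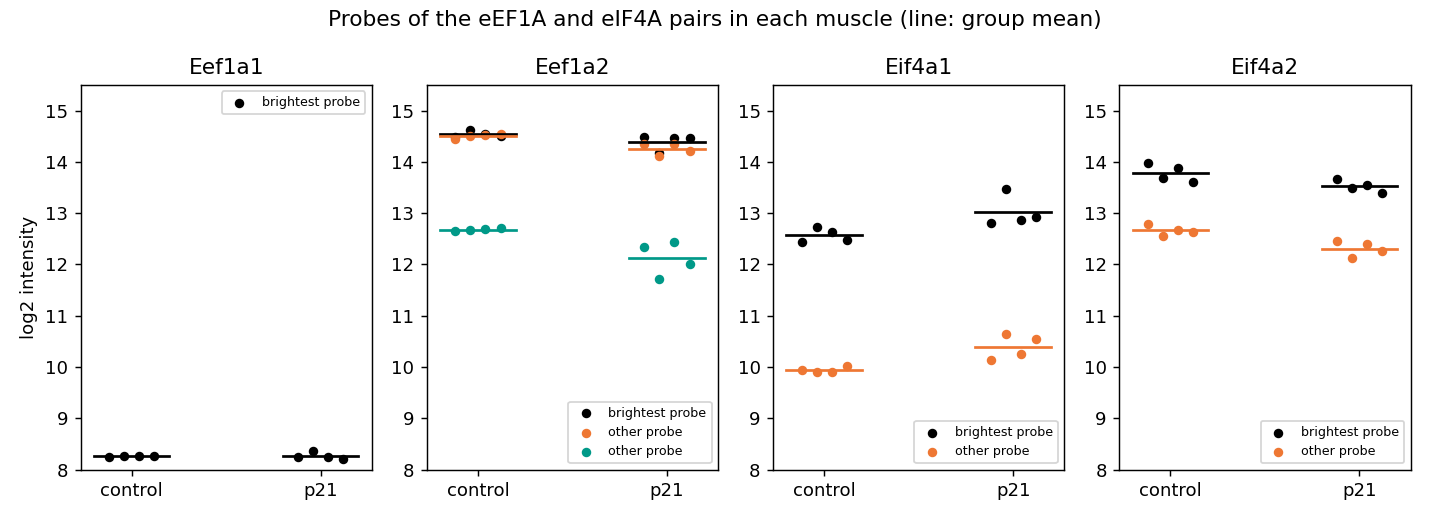
Points give the log2 intensity of every probe of Eef1a1, Eef1a2, Eif4a1 and Eif4a2 in each of the 4 control and 4 p21 muscles, coloured by probe, with lines at the group means. Eef1a1 lies at the floor near 8.26 in both groups, both Eif4a1 probes lie higher in p21 muscles, and the Eef1a2 and Eif4a2 probes have lower means there.

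Eif4a3, whose product is not a scanning helicase but a core part of the exon junction complex left on spliced mRNA, rose. It read 10.31, 10.41, 10.34 and 10.42 in control muscles and 10.60, 10.98, 10.59 and 10.72 in p21 muscles. Its groups lay apart, with a change of 0.36 ± 0.10, or 1.28-fold, and an adjusted p of 0.0445 that was the nearest inside the threshold. The call was lost without any 1 of the control replicates (largest adjusted p = 0.124). Of the eIF4A cofactors, Eif4h had a change of 0.16 ± 0.07 (adjusted p = 0.212) and Eif4b of 0.01 ± 0.08 (adjusted p = 0.958).

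At the cap, the repressive relative of eIF4E rose and an inhibitor of eIF4E fell. Eif4e2 encodes 4EHP, which binds the cap but not eIF4G and so holds mRNAs back from initiation. Its brightest probe read 10.54, 10.59, 10.57 and 10.49 in control muscles and 11.01, 11.12, 10.89 and 11.04 in p21 muscles. All p21 values lay above all control values, and the rise of 0.47 ± 0.08, or 1.38-fold, had the smallest adjusted p among the rises (0.0116). It was lost without p21 replicate 4 alone among the 17 alternatives, at adjusted p = 0.0534. The other Eif4e2 probes, which were dimmer, had changes of 0.19 ± 0.06 and 0.10 ± 0.05 (adjusted p = 0.0627 and 0.257). With the floor of the array subtracted, those changes were 0.51 and 0.24, against 0.56 for the brightest probe. The mean of the 3 Eif4e2 probes on the deposited scale had a smaller change, 0.25 ± 0.05, that passed (adjusted p = 0.0268). Eif4e itself, read near the floor at 8.43 to 8.77 over the 8 muscles, had a change of -0.13 ± 0.06 (adjusted p = 0.198), with overlapping groups. With the floor subtracted the Eif4e change was -0.48. Eif4enif1, for the protein that carries eIF4E into the nucleus, had changes of -0.03 ± 0.07 and -0.10 ± 0.05 in its probes.

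Eif4ebp2 encodes a protein that sequesters eIF4E until the kinase mTORC1 phosphorylates it. It read 9.73, 9.51, 9.50 and 9.56 in control muscles and 9.37, 9.09, 9.21 and 9.18 in p21 muscles. The groups lay apart, and Eif4ebp2 fell by 0.36 on the log2 scale, with SE 0.08, so that it was 1.28-fold lower (adjusted p = 0.0219, and 0.0653 and 0.0543 without control replicate 1 and 2). On the background-subtracted scale the Eif4ebp2 change was -0.62. Its relative Eif4ebp1 read 11.94 ± 0.24 and 11.92 ± 0.32, a change of -0.02 ± 0.16, with overlapping groups. Eif4ebp3 lay at the floor. eIF4G was represented by Eif4g2, a relative that lacks the eIF4E binding site. Of its 2 probes 0 passed limma's threshold or an unadjusted p of 0.05, and the brighter one had a change of -0.05 ± 0.08.

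The factors of subunit joining and eIF5A had 0 of 6 probes past limma's threshold, with 2 at unadjusted p under 0.05. Eif6, whose product keeps the large subunit from joining too early, read 10.97 to 11.12 in control muscles and 11.20 to 11.42 in p21 muscles. Its groups lay apart, with a change of 0.28 ± 0.08 (adjusted p = 0.0626), and it passed under 4 of 17 alternatives. Eif5a, the hypusine-bearing factor that eases stalled elongation, had a brightest probe with a change of 0.22 ± 0.08 (adjusted p = 0.114) and another with 0.01 ± 0.08. The groups did not overlap in the former and overlapped in the latter, so the Eif5a probes disagreed.

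Among elongation factors, Eef1b2, which encodes an exchange factor subunit of eEF1B, rose in all 3 of its probes. The brightest probe read 11.64, 11.49, 11.58 and 11.48 in control muscles and 11.99, 12.32, 11.84 and 12.06 in p21 muscles. Every p21 muscle lay above every control muscle, and the rise of 0.51 ± 0.10, or 1.42-fold, was the largest among the factor probes on the deposited scale (adjusted p = 0.0196). On the background-subtracted scale Eif1a had a larger change (0.70, against 0.55). The other probes rose by 0.45 ± 0.12 and 0.38 ± 0.10 (adjusted p = 0.0433 and 0.0360), and their groups lay apart too. Besides the loss without p21 replicate 4, the brightest probe was lost without control replicate 2 (adjusted p = 0.0646). The second missed the threshold when any of control replicates 1, 2 and 3 and p21 replicates 1 and 3 was left out, and the third when any of control replicates 2, 3 and 4 and p21 replicate 3 was (adjusted p at most 0.128 and 0.101). The second was also lost without the intensity trend (0.0556). The other eEF1B subunit genes, Eef1d and Eef1g, had changes of -0.08 ± 0.07 and 0.06 ± 0.05 in their brightest probes (adjusted p = 0.523 and 0.566).

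Eef2k, the kinase that phosphorylates and inhibits eEF2, fell. It read 9.93, 9.58, 9.65 and 9.43 in control muscles and 9.24, 8.77, 9.14 and 8.97 in p21 muscles. The p21 values all lay under the control values, with a change of -0.62 ± 0.12, or 1.54-fold lower (adjusted p = 0.0159, and 0.0626 without p21 replicate 4, the sole loss among 17 alternatives). On the background-subtracted scale the Eef2k change was -1.13, beyond the -0.75 of the brightest Eif2s2 probe. Its substrate eEF2 had changes of -0.01 to 0.14 in the 3 Eef2 probes, with overlapping groups (smallest adjusted p = 0.531). The genes of the eEF1A methyltransferases, Eef1akmt1, Eef1akmt2 and Eef1aknmt, had changes of -0.07 to 0.05 over 7 probes. Eef1e1, named as an elongation factor but part of the aminoacyl-tRNA synthetase complex, had a change of -0.02 ± 0.08 (adjusted p = 0.915).

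**Figure D4:**
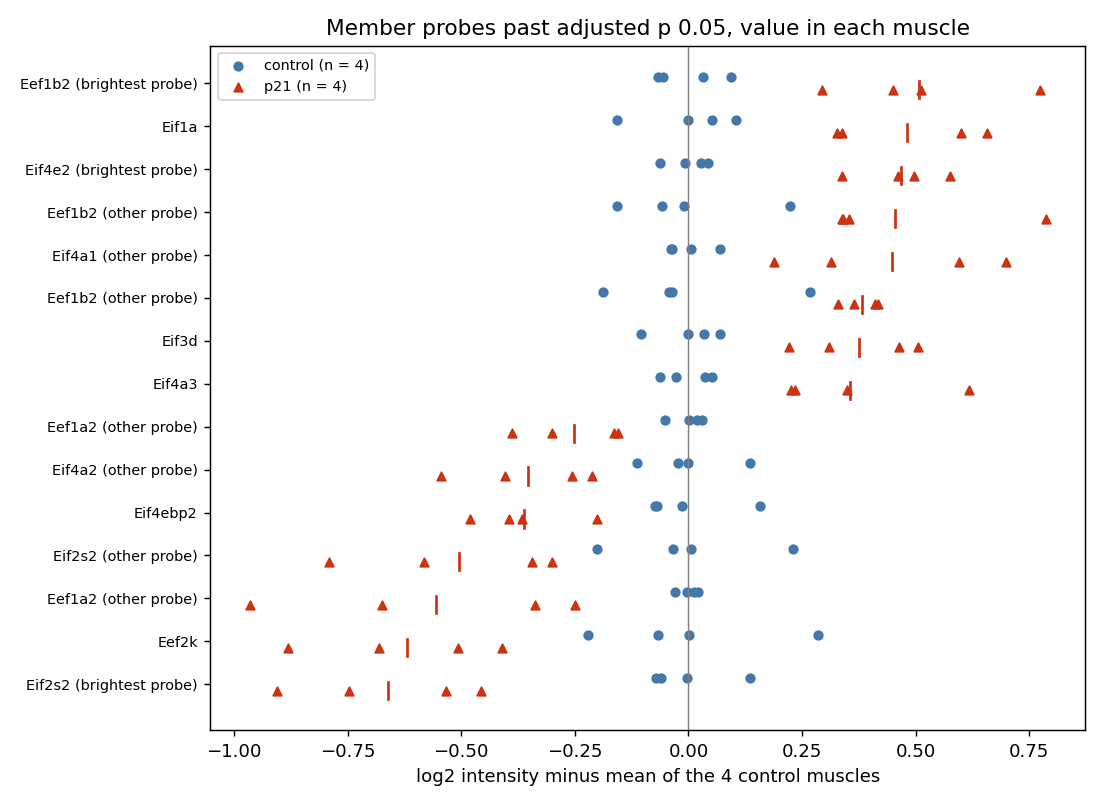
The x axis gives the log2 intensity in each muscle minus the mean of the 4 control muscles, for the 15 factor probes past adjusted p 0.05, with control muscles as circles, p21 muscles as triangles and the p21 mean as a short line. In each row the triangles lie to 1 side of all circles.

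Eef1a2, the adult muscle form of eEF1A, fell in 2 of its 3 probes. The dimmest Eef1a2 probe read 12.65, 12.68, 12.69 and 12.70 in control muscles and 12.34, 11.72, 12.43 and 12.01 in p21 muscles. Control muscles lay close together while p21 muscles spread widely, and the fit gave -0.56 ± 0.14, or 1.47-fold lower (adjusted p = 0.0323). The second probe fell from 14.51 ± 0.04 to 14.25 ± 0.11 (-0.25 ± 0.06, adjusted p = 0.0336). The brightest probe went from 14.54 ± 0.06 to 14.39 ± 0.15, and its change of -0.14 ± 0.07 missed the threshold (adjusted p = 0.270, exact two-sided permutation p = 0.0286, the smallest that 4 against 4 arrays allow). The changes of the 3 probes were thus smaller the brighter the probe, and 99.7% of all probes were dimmer than the brightest. Whether so bright a probe is compressed near the array maximum of 15.27 was not tested. Both Eef1a2 calls were lost without any 1 of the control replicates (adjusted p at most 0.0832 for the dimmest and 0.0888 for the second probe). The dimmest was also lost without the intensity trend (0.0523), and the second with robust eBayes (0.0700) and on the background-subtracted scale (0.0667). The mean of the 3 Eef1a2 probes did not pass either (-0.32 ± 0.09, adjusted p = 0.0529), and without p21 replicate 2 the brightest probe had a change of -0.07 ± 0.05.

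Eef1a1, the embryonic form, could not be followed on this array. Its single probe read 8.25, 8.27, 8.27 and 8.26 in control muscles and 8.25, 8.36, 8.24 and 8.21 in p21 muscles. All values lay under the array median, where 21.1% of the probes were dimmer still, and the change was 0.00142 ± 0.029 (adjusted p = 0.986, exact two-sided permutation p = 0.971). This is a reading at the floor of the array, with no detection calls at hand, and says nothing of whether the Eef1a1 transcript was present or changed. The difference of the log2 values of Eef1a1 and the brightest Eef1a2 probe was -6.28 ± 0.05 in control muscles and -6.13 ± 0.21 in p21 muscles. The group means thus differed by 0.15, and by 0.25 and 0.56 with the other Eef1a2 probes. In each case this restates the change of Eef1a2 with opposite sign, to within 0.00142, and gives no reading of Eef1a1. The brightest probes of Eef1akmt2, Eif1ax, Eif3m, Eif4e1b, Eif4ebp3, Eif5a2 and Eif5b also lay under the array median, which with Eef1a1 makes 8 of the 54 genes.

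Neighbouring steps of translation were read from lists of related genes, each gene by its brightest probe, where 9.02% of all named genes passed in either direction. Of the poly(A) binding proteins and their partners, 1 of 6 rose and 2 fell. Pabpc1, the main cytoplasmic poly(A) binding protein, rose by 0.41 ± 0.08 (adjusted p = 0.0173), while its relative Pabpc4 changed by -0.47 ± 0.10 (adjusted p = 0.0210). Paip2b, which displaces poly(A) binding protein from mRNA, changed by -0.67 ± 0.15 (adjusted p = 0.0265). Of the 10 mitochondrial translation factors 3 fell, the recycling factor Gfm2 (-0.42 ± 0.11, adjusted p = 0.0430) and the release factor relatives Mtrf1 and Mtrf1l (adjusted p = 0.0234 and 0.0436). The median of that list was -0.14, against -0.00398 over all named genes. Of 20 cytosolic aminoacyl-tRNA synthetases and their scaffolds, Gars rose by 0.27 ± 0.07 (adjusted p = 0.0426) while Aimp2 changed by -0.67 ± 0.16 and Hars, near the floor, by -0.13 ± 0.03 (adjusted p = 0.0298 and 0.0283). Without control replicate 1 or p21 replicate 4 limma called 0 genes of these lists, and without control replicate 2 it called 1.

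Among the eIF2 kinases and the phosphatase subunits that oppose them, Ppp1r15b, near the floor, rose by 0.18 ± 0.04 (adjusted p = 0.0259), as 1 of 6. It read 8.39 ± 0.02 in control muscles and 8.57 ± 0.06 in p21 muscles. The call failed when any of control replicates 1, 2 and 3 and p21 replicate 4 was left out. Changes in this list ran from -0.17 (Eif2ak1) to 0.47 (Eif2ak2), neither called (adjusted p = 0.165 and 0.170). At unadjusted p under 0.05, 2 were higher and 1 lower. Of 13 genes of mTORC1 and S6 kinase, limma called 0, with 1 higher and 6 lower at unadjusted p under 0.05, and it called 1 lower with the replicate block and 3 lower without the intensity trend. Of 9 genes of release and recycling it called 0, with 2 higher and 1 lower at that level, and without the intensity trend it called 1 higher and 2 lower. Of 7 genes of selenocysteine insertion and diphthamide it called 0, with 0 higher and 1 lower at that level, and with the replicate block 1 lower.

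Eef1a2 and Eif4a2 had called probes that were lower and Eif4a1 one that was higher, none of them the brightest of its gene. The bases before the annotated start of the genes of the eEF1A and eIF4A pairs are therefore shown. They are the 120 bases before the RefSeq start in GRCm38.p6, 5′ to 3′ on the gene's strand, with matches to the motifs below in capitals.
Eef1a1 (chr9:78481725-78481844, minus strand): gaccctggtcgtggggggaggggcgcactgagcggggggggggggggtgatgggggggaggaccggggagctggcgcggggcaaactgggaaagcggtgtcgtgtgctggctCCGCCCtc
Eef1a2 (chr2:181157016-181157135, minus strand): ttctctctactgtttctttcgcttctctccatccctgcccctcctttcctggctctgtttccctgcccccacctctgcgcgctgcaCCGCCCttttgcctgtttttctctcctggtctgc
Eif4a1 (chr11:69672424-69672543, minus strand): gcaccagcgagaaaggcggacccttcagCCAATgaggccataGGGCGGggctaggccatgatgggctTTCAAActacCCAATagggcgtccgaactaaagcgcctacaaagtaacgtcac
Eif4a2 (chr16:23107348-23107467, plus strand): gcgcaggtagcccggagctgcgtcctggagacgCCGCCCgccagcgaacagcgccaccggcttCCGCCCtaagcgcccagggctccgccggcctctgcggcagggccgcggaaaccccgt
Each printed window holds at least 1 GC box, and that of Eif4a1 also holds 2 CCAAT boxes and a match to the cell cycle element CHR, as TTCAAA on this strand. No capital run joins overlapping motifs.

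Motifs were searched on both strands in the 250 bases before the first listed start of 41 factor genes with a RefSeq promoter, and were picked after the values were seen. The GC box GGGCGG was found in 30 of 41, or 73.2%, against 32.9% of all 27025 promoters and 46.4% of the 13335 promoters of genes on the array. The E-box CACGTG, the site of Myc and its relatives, was found in 9 of 41, or 21.95%, against 6.05% and 7.18%. Of the 10 changed genes with a promoter, Eef2k and Eif4a1 hold that E-box, and 1 fell while the other rose. The CHR motif TTTGAA was found in 17.1% of factor promoters, against 16.3% of all and 13.9% of those of array genes. The CCAAT box was found in 26.8%, against 34.5% and 36.0%. The myogenic E-box CAGCTG was found in 4.88%, against 12.8% and 11.8%. The E2F words TTTCCCGC, TTTGGCGC, TTTCGCGC and TTTGCCGC were found in 2 of 41, or 4.88%, against 1.91% and 2.56%. The CRE TGACGTCA was found in 0, against 1.62% and 2.10%. These matches describe letters in these windows and no site or cause.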

How the data were processed

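Expression was measured in 8 samples, 4 per plasmid. The authors deposited log2 intensities of 25697 probes, and the sources used here do not give array software, background correction or normalization. Once sorted, the intensities matched across all 8 arrays to within 0.00073, as quantile normalization leaves them. The values span 8.13 to 15.27 with a median of 8.39, near the floor, which compresses changes of dim probes. Gene names came from the platform annotation, and each factor's Entrez number matched the same symbol in RefSeq.

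The fit used limma 3.58.1 in R 4.3.3 over all probes (lmFit, eBayes with intensity trend, two-sided, Benjamini-Hochberg, adjusted p 0.05). Eef1a1 and Eef1a2 were also tested by exact permutation over all 70 regroupings. Alternatives covered normalization, an offset, a filter on dim probes, the variance model, array weights, the replicate block, the threshold, averaging over the probes of a gene, each array left out and, chosen after seeing the data, a background-subtracted scale. No probe was filtered in the reported fit, and the fit was tested on simulated data. The number of arrays limits precision. Counts at unadjusted p under 0.05 are given without the share of all probes or genes at that level, so they show no excess.

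Members and lists were chosen with earlier results of these data known. Named are every factor gene with a called probe, Eef1a1, Eef1a2, Cdkn1a, in each role without a call the gene of smallest p, the probes nearest the threshold, and up to 3 called genes per other list; further genes were named after their values were seen. No hypusine synthesis gene was measured under the names used.

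Both groups are numbered 1 to 4, without a stated meaning. Deviations from group means correlated between same-numbered arrays at 0.483, 0.264, 0.212 and 0.181, all above the preset 0.1. Some arrays of unlike number passed 0.1 too (0.448 for control replicate 3 and p21 replicate 4, 0.297 for control replicate 4 and p21 replicate 2). The correlations therefore do not settle whether the numbers mark pairs. The reported fit and the exact permutation tests did not use the numbers. Values with the replicate block are an alternative to that fit.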

Additional observations from a re-analysis of the deposited data

Results flagged for a closer look

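In the brightest Eef1a2 probe p21 replicate 2 read 14.17, while the other p21 muscles read 14.46 to 14.48, a gap of 0.943 of the group's range. In the Eef1b2 probe of middle brightness it read 12.16, against 11.71 to 11.72 in the others (0.965 of the range). Both gaps exceed Dixon's critical value for 4 samples. In all, 48 groups of 4 were examined, and chance marks about 5% of such groups.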

How the results depend on the processing

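Repeated quantile normalization, median centring and an offset of 16 left the counts of called factor probes at 8 higher and 7 lower. With the replicate block 9 and 10 passed, or 20.9%, against 12.4% of all probes. The genes lower by their brightest probe then numbered 5. The block also moved the counts of macrophage markers higher to 10, immature muscle markers higher to 6 and mitochondrial factors lower to 4. Over probes brighter than the median probe, where Eef1a1 has no value, 8 genes were higher and 5 lower, out of fewer probes tested. There 29.6% of the factor probes passed, against 22.9% of all probes tested. At adjusted p 0.01 the factor probes and genes in either direction numbered 0 (31 of 91 probes at unadjusted p under 0.05), and at 0.1 the genes lower numbered 5. Shares of all probes at these levels were not taken, so these counts show neither an excess nor a lack among the factors. With an array left out, the probes higher ranged from 0 to 9, probes lower from 0 to 8, genes higher from 0 to 6, genes lower from 0 to 4, and the median change of the 54 genes from -0.01 to 0.01 (-0.0146 to 0.00878). The Eef1a1 change ranged from -0.03 to 0.02 (-0.0297 to 0.0202) with an array left out, the Eef1a2 change from -0.17 to -0.07, and their difference from 0.041 to 0.187. The Eef1a1 change also turned to -0.0179 with array weights and to -0.0891 on the background-subtracted scale, which was added after seeing the data. Without p21 replicate 4 the difference of Eef1a1 and Eef1a2 was 0.187, and with the mean of all probes of a gene it was 0.319, with 0.146 under the replicate block. It was not run with array weights or other variance models, which it does not use. The Eef1e1 change ranged from -0.066 to 0.039, the latter without control replicate 1. The other values under alternatives pool changes with counts of lists. Of them 605 stayed the same, as changes that kept direction and side of the threshold or as counts within 1.5 times. Of the changes 60 fell short of the threshold, 12 rose past it and 1 reversed. Another 51 were list counts that moved by over 1.5 times, or from or to 0. The cause of these shifts was not tested. Depth does not apply to arrays, and the dim probes carry little signal over the floor.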

Other observations

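The cap-binding relatives Eif4e2 and Eif4e3 had changes of opposite sign, in values picked after they were seen. Only Eif4e2 had a called probe in the reported fit. The brightest Eif4e3 probe read 11.56, 11.37, 11.51 and 11.43 in control muscles and 11.32, 10.70, 11.37 and 11.20 in p21 muscles. Its change was -0.32 ± 0.13 (adjusted p = 0.178), and the other Eif4e3 probes had changes of -0.29 ± 0.09 and -0.26 ± 0.12 (adjusted p = 0.0703 and 0.239). The 3 Eif4e3 probes thus had changes of like size on the deposited scale, and none passed the test in the reported fit. On the background-subtracted scale the dimmest had a change of -0.63, against -0.37 for the brightest and -0.34 for the other. With the replicate block the dimmest passed (adjusted p = 0.0386). Within each muscle the brightest Eif4e2 probe minus the brightest Eif4e3 probe gave -1.02 to -0.78 in control muscles and -0.48 to 0.42 in p21 muscles, with a shift of 0.79. Such a difference does not show the relative amounts of the pair.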
